A study of Mus musculus with 24 samples.

Results

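Ribosome-bound RNA of cortical astrocytes was compared between spontaneous waking and sleep in 12 mice, 6 per state, of the 24 samples in the series, and 18193 genes were tested. The members are the 6 arrays labelled as the bound fraction of waking mice and the 6 labelled as the bound fraction of sleeping mice, chosen by their labels alone. All animals of the study, in every group, were adult mice heterozygous for aldh1l1 - eGFP-L10a, a transgene in which ribosomal protein L10a carries eGFP and is expressed under the Aldh1l1 promoter, so that mainly astrocytes carry the tag. An immunoprecipitation of the tagged ribosomes from cerebral cortex gave the bound fraction, and the supernatant, with RNA of the other cell types, gave the unbound fraction. The waking mice were killed in the dark phase, at about 3 to 5 am, after a wake period of more than 60 min with sleep interruptions shorter than 5 min and after at least 70% of the previous 6 to 7 h awake. The sleeping mice were killed in the light phase, at about 3 to 5 pm, after more than 45 min of sleep with interruptions shorter than 4 min and at least 75% of the previous 6 to 7 h asleep. State and time of day therefore moved together and cannot be told apart in this comparison. A further 6 bound arrays came from mice kept awake for 4 h in the light phase with unfamiliar objects, and their levels are given where they bear on a gene. Each bound array was 1 animal, and each of the 6 unbound arrays, 2 per state, was a pool of 3 animals (animals 1 to 3 or 4 to 6). The sex of the mice is not given in the sources used here.

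Astrocytes take up glutamate and potassium released by neurons, store glycogen, supply lactate and cholesterol, and are joined to each other by gap junctions. Their fine processes touch synapses and blood vessels, and their intracellular calcium and cAMP rise with noradrenaline, which is released by the locus coeruleus mainly in wake. Pulling down tagged ribosomes samples mRNA that is being translated or is held on ribosomes in the tagged cells, so a change in the bound level can come from the amount of an mRNA or from its ribosome loading, and in a tissue sample fewer cells and less RNA per cell cannot be told apart.

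The levels are log2 values of the robust multi-array average (RMA), so a difference of 1 is a doubling, and differences are waking minus sleep throughout. Aldh1l1, the gene whose promoter drives the tag, lay between 10.57 and 11.10 (median 10.79) in waking and between 10.52 and 11.24 (median 10.84) in sleep, and was higher in the bound than in the unbound arrays by 3.88. The waking and sleep arrays overlapped fully for this gene (difference -0.03 ± 0.14 SE, adjusted p = 0.943, its sign turning under some alternatives), and Rpl10a, which encodes the tagged ribosomal protein, differed by 0.18 ± 0.24 (adjusted p = 0.755). Over 25 astrocyte markers the median bound minus unbound difference was 3.52, against -2.01 over 23 neuronal markers, so the pull-down enriched the labelled cell type without removing neuronal RNA. In the bright genes (mean level of at least 5.80, the median of all probe sets), the leading axis of variation among the 12 arrays, with 49.5% of the variance, separated animals 1 to 3 from animals 4 to 6 in both states, and the next, with 12.4%, separated waking from sleep. The lower quartile of the arrays was 3.72 to 3.83 in waking, 3.76 to 3.88 after sleep deprivation and 3.53 to 3.59 in sleep. Any 2 arrays of the same state shared between 220 and 533 exactly equal values, whereas the 36 pairs of a waking with a sleep array shared between 0 and 2. Which arrays were normalized together is not given in the sources used here, and an offset from separate normalization runs and an effect of state on the general level cannot be told apart, in dim or in bright genes.

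In waking 1650 genes were higher (9.07% of those tested) and 389 were lower (2.14%) than in sleep, at an adjusted p under 0.05 in limma with Benjamini-Hochberg adjustment over all genes. The median difference of all genes was 0.09. Most of the calls were of dim genes, with 1278 higher and 285 lower among 6589. Of the 11604 bright genes, 372 were higher (3.21%) and 104 were lower (0.896%). Bright is set by the mean over the 18 bound arrays, so the arrays of 1 state can lie below the limit. When bright genes were tested alone, so that the adjustment no longer drew on the many small p-values of dim genes, 113 were higher and 29 lower. When quantile normalization was repeated over the 18 bound arrays the numbers over all genes were 742 higher and 636 lower, with 732 and 361 of the original calls among them, so the share of higher calls moved to near parity. The bright genes moved too, to 170 higher and 158 lower, and their median difference went from 0.0646 to -0.0062. With the replicate number as a block, 2399 were higher and 665 lower over all genes, and 882 and 291 among bright genes. All 6 waking arrays lay above all 6 sleep arrays in 6.01% of all genes and 1.75% of bright genes, and below them in 1.24% and 0.422%. Of the 118 named genes past the threshold, 28 did not pass with quantile normalization repeated. These were Abcc9, Ccl2, Cox7c, Crem, Ddit4, Ddx31, Egr1, Fcrls, Fgfr3, Gja5, Hba-a1, Homer1, Il18, Manf, Mdm2, Notch1, Npas2, Npas4, Pfkfb3, Ppp1r3d, Sdf2l1, Slc38a5, Slc4a1, Synpo, Thrb, Tmed2, Vcan and Vipr1. With bright genes tested alone 36 did not pass, 18 of those just named and Actb, Ahnak, Chordc1, Ciart, Creld2, Eif4e2, Epm2a, Hfe, Hif3a, Icosl, Idi1, Mir99ahg, Notch3, Npas3, Psmb9, Spry4, Timp4 and Trpc7.

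**Figure D1:**
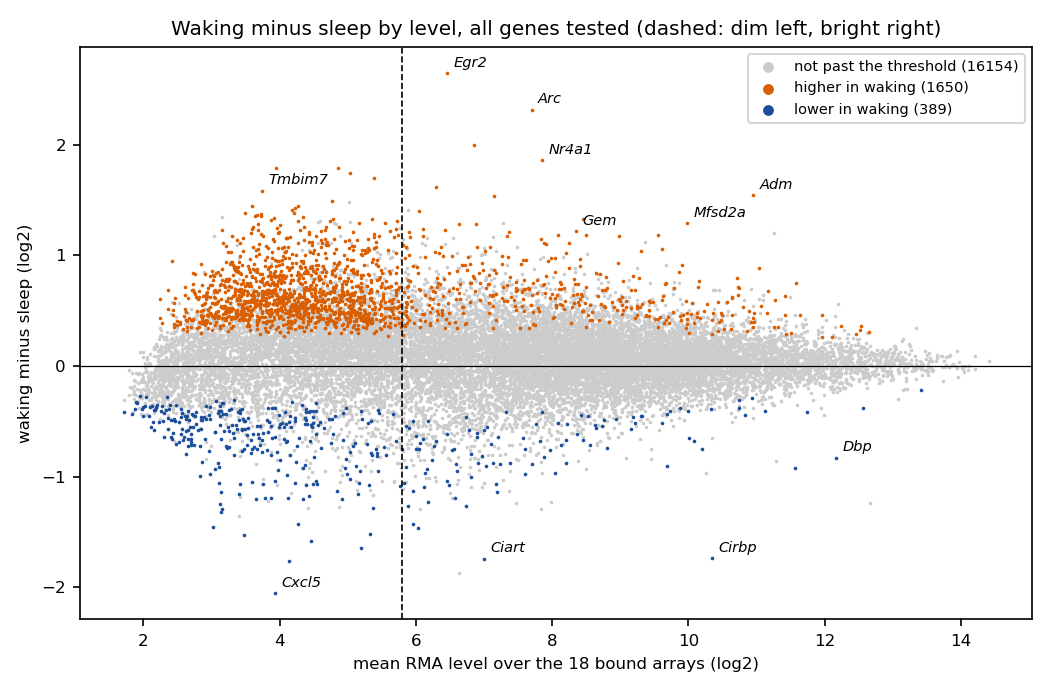
Each point is 1 of 18193 genes, with its mean RMA level over the 18 bound arrays (log2) on the horizontal axis and its difference, waking minus sleep (log2), on the vertical axis. Orange points were higher and blue points lower in waking at an adjusted p under 0.05, grey points did not pass, and the dashed line at 5.80 separates dim genes on the left from bright genes on the right, where Arc, Nr4a1, Cirbp and Ciart stand far from 0.

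Transcription factors of the immediate early class, which neurons and glia switch on within minutes of stimulation, had the largest share of members higher in waking among the 38 lists that hold no cell type markers. Of 25 members tested, 8 rose (32%, beside 9.07% of all genes) and none fell, with a median difference of 0.41. Nr4a1 (probe set 1416505_at), an orphan nuclear receptor, lay between 7.22 and 8.94 (median 8.69) in waking and between 6.14 and 6.93 (median 6.36) in sleep. Every waking array was above every sleep array, and the difference was 1.86 ± 0.27 (3.63-fold, adjusted p = 0.000228). Maff, a small basic leucine zipper protein, lay between 6.91 and 7.87 (median 7.41) in waking and between 5.10 and 6.58 (median 5.81) in sleep, again without overlap, and the difference was 1.53 ± 0.23 (adjusted p = 0.0003). Fos, a subunit of the AP-1 factor, lay between 7.92 and 9.06 (median 8.49) in waking and between 6.50 and 7.89 (median 7.37) in sleep (difference 1.18 ± 0.26, adjusted p = 0.00559), and the closest arrays of the groups were almost level. Egr2, a zinc finger factor, had the largest difference of the list, 2.65 ± 0.55 (adjusted p = 0.00361), but its arrays spread widely, from 5.31 to 8.53 in waking and from 2.58 to 5.58 in sleep, and the groups overlapped. All of its sleep arrays lay below the limit of 5.80 for bright genes, and the lowest lay below the lower quartile of the sleep arrays. Fosb and Nr4a3 rose by 1.22 ± 0.29 and 1.11 ± 0.22 (adjusted p = 0.00897 and 0.00297) without overlap between the groups. Egr1 (1.04 ± 0.32, adjusted p = 0.0422) and the dim Npas4 (0.53 ± 0.16, adjusted p = 0.0456) were at the edge of the threshold, since leaving out any of 10 arrays in the first case and of 9 in the second ended the call, with adjusted p up to 0.0963 in the first case and 0.0942 in the second. With bright genes tested alone 6 of the 8 passed, Egr2 among them. With a replicate block 11 of the 25 did, and with quantile normalization repeated 6 did.

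These transcripts were not all of the kind that the pull-down enriched. The bound level minus the unbound level was 1.44 for Maff, -0.44 for Nr4a1, -0.37 for Fos, -2.20 for Egr2 and -3.12 for Egr1, so Egr1 and Egr2 were far more abundant in the unbound lysate. In the unbound pools, where the median waking minus sleep difference of all genes was 0.30 and 8.63% of genes passed in either direction, Fos differed by 2.34 (adjusted p = 0.00207), Nr4a1 by 2.13 (0.00521) and Maff by 1.75 (0.00586). The difference between the fractions was -1.16 for Fos (adjusted p = 0.214), -0.27 for Nr4a1 (0.856) and -0.22 for Maff (0.862). None of the 3 passed the test of that difference. With the pool number as a replicate block on the unbound arrays alone, none of the named genes passed in the unbound comparison in limma, these 3 included, while 69 of 136 had an unadjusted p under 0.05. What RNA of other cells in the bound fraction contributed to these genes was not tested.

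Effectors of activity, proteins that immediate early programmes put in place at synapses and in signalling, rose in 4 of 19 members and fell in none, with a median difference of 0.50. The share was 21.1%, beside the 9.07% of all genes that were higher. With the replicate block 7 rose, and with quantile normalization repeated 3 did. Arc (probe set 1418687_at), a capsid-like protein that regulates AMPA receptor traffic, lay between 7.84 and 9.33 (median 8.21) in waking and between 5.29 and 6.75 (median 6.06) in sleep. The lowest waking array was about 1 unit above the highest sleep array, and the difference was 2.31 ± 0.34 (4.98-fold, adjusted p = 0.000239). Gem, a small GTPase that limits calcium channels, lay between 8.08 and 9.08 (median 8.65) in waking and between 6.87 and 7.88 (median 7.51) in sleep (difference 1.22 ± 0.22, adjusted p = 0.00129). Sik1, a salt-inducible kinase that restrains CREB coactivators, lay between 7.57 and 8.33 (median 8.01) in waking and between 6.54 and 7.19 (median 6.89) in sleep (difference 1.11 ± 0.15, adjusted p = 0.000103). Neither gene overlapped between the groups. Gem was higher in the bound than in the unbound fraction by 3.77, in contrast to Arc, which was lower there by a difference of -1.31. Homer1, a scaffold of metabotropic glutamate receptors, rose by 0.67 ± 0.21 (adjusted p = 0.0413), a call that ended when any of 9 arrays was left out (adjusted p up to 0.0965), and its 6 probe sets ranged from 0.14 to 1.33. Among 16 phosphatases and feedback inhibitors of MAP kinase signalling, Dusp1 rose by 0.79 ± 0.14 (adjusted p = 0.000976) and Spry4 by 0.61 ± 0.15 (adjusted p = 0.0152, not past the threshold with bright genes tested alone), and none fell.

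**Figure D2:**
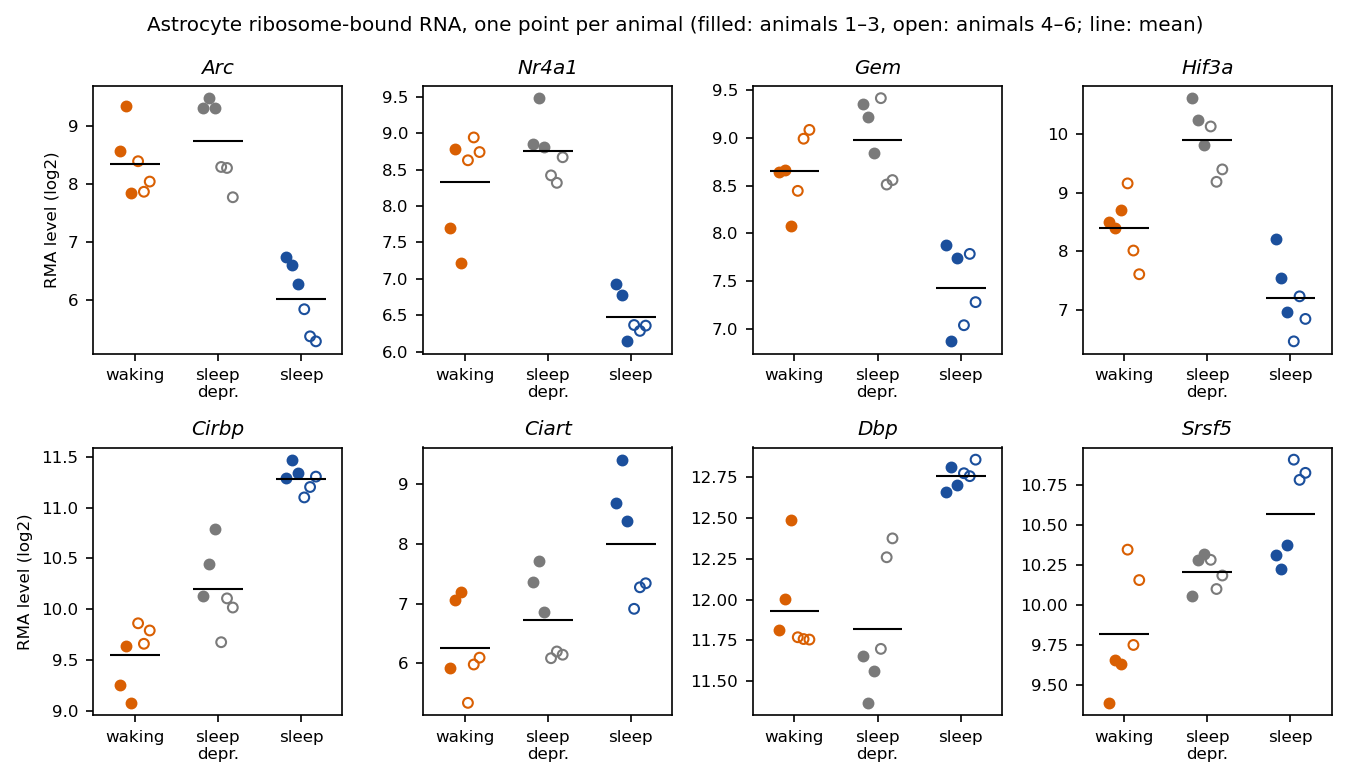
RMA levels (log2, vertical axes, not starting at 0) of 8 genes in the bound arrays of waking, sleep-deprived and sleeping mice, with 1 point per animal, filled for animals 1 to 3 and open for animals 4 to 6, and a line at the mean of 6. Arc, Nr4a1, Gem and Hif3a are higher and Cirbp, Ciart, Dbp and Srsf5 lower in waking than in sleep, and the arrays of Arc, Nr4a1, Gem, Cirbp and Dbp do not overlap between these groups.

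Sleep deprivation took place in the light phase, as sleep did, so the levels in those animals are set beside the others. The comparison of waking with sleep deprivation shares the waking arrays with the comparison described here, and 6.84% of all genes passed in it in either direction. Arc lay between 7.77 and 9.47 (median 8.80) after sleep deprivation and Nr4a1 between 8.32 and 9.48 (median 8.74), within or close to the range in waking (differences -0.40 and -0.42, adjusted p = 0.640 and 0.468). Fosb, Maff, Sik1 and Crem, a transcriptional modulator of the cAMP pathway, were lower in waking than after sleep deprivation, by differences of -1.04, -0.82, -0.81 and -0.97 (adjusted p = 0.0360, 0.0400, 0.00233 and 0.000544). The level of Crem in waking stood between the other groups, with medians of 8.11 in waking, 9.21 after sleep deprivation and 7.51 in sleep.

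The molecular clock runs on activators such as Clock, Npas2 and Arntl, which drive Per, Cry and Nr1d genes whose products feed back on them, and on output factors such as Dbp. Among 13 clock repressors and outputs, all bright, 2 fell in waking and none rose, with a median difference of -0.17. The share that fell was 15.4%, beside the 2.14% of all genes and the 0.896% of bright genes that were lower. Dbp (probe set 1438211_s_at), a D-box binding factor that peaks in the light phase in many mouse tissues, lay between 11.76 and 12.49 (median 11.79) in waking and between 12.66 and 12.86 (median 12.77) in sleep. The groups did not overlap, and the difference was -0.83 ± 0.17 (adjusted p = 0.0028). Ciart, a repressor of the Clock and Arntl dimer, lay between 5.34 and 7.20 (median 6.04) in waking and between 6.91 and 9.42 (median 7.87) in sleep, and fell by 1.74 on the log2 scale (SE 0.43, adjusted p = 0.0131). Its groups overlapped, and it did not pass when bright genes were tested alone. Nr1d1, a nuclear receptor that represses Arntl, had a difference of -0.86 ± 0.34 (adjusted p = 0.121, and 0.000133 with the replicate block), and Cry1 had 0.54 ± 0.27 (adjusted p = 0.240, and 0.0109 with the block). Per1, Per2 and Per3 differed by 0.56, 0.38 and -0.17 (adjusted p = 0.440, 0.184 and 0.654). Of 7 activators and genes of opposite phase, 14.3% were higher, beside 9.07% of all genes and 3.21% of bright genes. Only Npas2 passed, with 0.64 ± 0.17 (adjusted p = 0.0218). Its call ended without sleep replicate 2, waking replicate 4 or waking replicate 5 (adjusted p up to 0.0537). Arntl had 0.45 (adjusted p = 0.157, and 0.0140 without waking replicate 3). Clock had 0.47 (adjusted p = 0.375, and 0.0266 in 1 of 26 alternatives). Dbp after sleep deprivation lay between 11.37 and 12.38, near its level in waking (difference 0.11, adjusted p = 0.842).

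Ciart is shown with the 300 bases from 250 before to 50 after its start (RefSeq, GRCm38.p6, chr3:95882179-95882478, minus strand), since it had the largest fall among clock genes and its window holds 3 copies of the E-box, CACGTG, the letters that Clock and Arntl dimers bind. Capitals mark the E-boxes.
Ciart: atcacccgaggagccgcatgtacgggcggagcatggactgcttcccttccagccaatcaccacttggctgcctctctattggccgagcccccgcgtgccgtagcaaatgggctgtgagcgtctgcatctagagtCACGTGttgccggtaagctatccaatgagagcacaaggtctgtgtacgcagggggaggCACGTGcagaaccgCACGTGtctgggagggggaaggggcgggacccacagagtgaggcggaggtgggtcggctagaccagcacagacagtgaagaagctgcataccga
The E-box was found on either strand in a window of 5 of 11 clock repressors and outputs with a promoter in the table (Bhlhe41, Ciart, Cry1, Per1 and Tef). Of these 5 only Ciart passed the threshold, and the window of Dbp, which fell as well, held no E-box. Whether the E-box bears on the fall of Ciart was not tested. It was found in 10.2% of the 14452 genes tested that had a promoter there and in 11.9% of the 9434 bright genes among them. The share was 12.4% in the 290 bright genes higher in waking and 8.89% in the 90 bright genes lower in waking. The D-box TTATGTAA was present in 0.837%, 0.604%, 1.03% and 1.11% of the same sets in that order. The cAMP response element TGACGTCA was present in 2.92%, 3.49%, 3.45% and 2.22%. The CArG box of serum response factor, searched by its usual definition, was present in 1.58%, 1.7%, 3.10% and 2.22%.

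Of 15 RNA-binding proteins that respond to temperature and regulators of splicing, all bright, 2 fell and 1 rose (median 0.04), and 2 fell and 3 rose with the replicate block. The share that fell was 13.3%, beside 2.14% of all genes and 0.896% of bright genes. The share that rose was 6.67%, beside 9.07% of all genes and 3.21% of bright genes. Cirbp (probe set 1416332_at), the cold-inducible RNA-binding protein, lay between 9.08 and 9.86 (median 9.65) in waking and between 11.10 and 11.47 (median 11.30) in sleep. The groups were more than 1 unit apart, and the difference was -1.74 ± 0.17 (3.33-fold lower, adjusted p = 5.71e-06), the second smallest p of a bright gene. After sleep deprivation it lay between 9.68 and 10.79, and waking was lower than that as well, by a difference of -0.65 (adjusted p = 0.0249). In the unbound pools it differed by -1.32 (adjusted p = 0.00504, not past the threshold with the pool number as a block). Srsf5, a serine-arginine splicing factor, lay between 9.39 and 10.35 (median 9.71) in waking and between 10.22 and 10.91 (median 10.58) in sleep (difference -0.75 ± 0.16, adjusted p = 0.00453). Rsrp1, which encodes an arginine and serine rich protein, went the other way, with 8.61 to 8.96 (median 8.76) in waking and 6.81 to 7.75 (median 7.53) in sleep (difference 1.33 ± 0.17, adjusted p = 7.57e-05). Its waking arrays lay well above its sleep arrays. The other 12 of 15 members did not pass, among them Tra2a with 0.69 ± 0.26 (adjusted p = 0.108, and 0.00128 with the replicate block).

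Chaperones of the endoplasmic reticulum and factors of the unfolded protein response, which the cell makes when secretory folding is loaded, rose in 5 of 25 members and fell in none (median 0.23). The share was 20%, beside the 9.07% of all genes and the 3.21% of bright genes that were higher. With the replicate block 7 rose, and with quantile normalization repeated 3 did. Xbp1, the transcription factor at the head of a branch of that response, lay between 8.80 and 9.72 (median 9.50) in waking and between 8.13 and 8.88 (median 8.39) in sleep (difference 0.93 ± 0.19, adjusted p = 0.00351), and only the extremes of the groups overlapped. Dnajc3, a co-chaperone that inhibits the kinase PERK, lay between 10.44 and 10.76 (median 10.52) in waking and between 9.94 and 10.17 (median 10.08) in sleep, without overlap (difference 0.48 ± 0.10, adjusted p = 0.00268). Creld2, a secreted stress-induced protein, rose by 0.81 ± 0.21 (adjusted p = 0.0161), and so did Manf, a neurotrophic factor held in the reticulum (0.64 ± 0.19, adjusted p = 0.0331), and Sdf2l1, a partner of the chaperone BiP (0.91 ± 0.28, adjusted p = 0.0411). Leaving out any of 6 arrays ended the call of Manf and any of 10 that of Sdf2l1 (adjusted p up to 0.0773 and 0.0920). With bright genes tested alone Xbp1 and Dnajc3 passed. Hspa5, which encodes BiP itself, had 0.60 ± 0.21 (adjusted p = 0.0716, under 0.05 without sleep replicate 5, and 0.000917 with the replicate block).

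Of 20 cytosolic heat shock chaperones, which refold and disaggregate proteins, 2 rose and none fell (median 0.32), a share of 10% beside the 9.07% of all genes that were higher. With the replicate block 9 rose. Hsph1, a nucleotide exchange factor of Hsp70, lay between 10.93 and 11.69 (median 11.30) in waking and between 9.54 and 10.92 (median 10.57) in sleep (difference 0.89 ± 0.20, adjusted p = 0.00667), the lowest waking array just above the highest sleep array. Chordc1, a co-chaperone of Hsp90, rose by 0.70 ± 0.18 (adjusted p = 0.0149) with overlapping groups, and did not pass with bright genes tested alone. Hspa8, the constitutive Hsp70, had 0.35 ± 0.12 (adjusted p = 0.0763, and 0.00724 with the block). Hsph1 and Chordc1 were lower in the bound than in the unbound fraction, by differences of -1.87 and -0.69.

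Promoter windows of Creld2, Dnajc3 and Chordc1 are shown because they hold the elements known for these chaperone groups. Capitals mark the ER stress element in Creld2 (chr15:88819396-88819695, plus strand) and Dnajc3 (chr14:118937682-118937981, plus strand) and overlapping heat shock elements in Chordc1 (chr9:18292017-18292316, plus strand), all from RefSeq on GRCm38.p6 and written in the direction of the gene.
Creld2: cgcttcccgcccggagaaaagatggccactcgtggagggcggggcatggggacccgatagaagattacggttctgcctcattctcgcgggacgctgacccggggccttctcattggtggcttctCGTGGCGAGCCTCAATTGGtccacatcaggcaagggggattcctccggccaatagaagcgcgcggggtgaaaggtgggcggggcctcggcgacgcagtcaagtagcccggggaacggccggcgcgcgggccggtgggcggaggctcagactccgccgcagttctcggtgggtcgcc
Dnajc3: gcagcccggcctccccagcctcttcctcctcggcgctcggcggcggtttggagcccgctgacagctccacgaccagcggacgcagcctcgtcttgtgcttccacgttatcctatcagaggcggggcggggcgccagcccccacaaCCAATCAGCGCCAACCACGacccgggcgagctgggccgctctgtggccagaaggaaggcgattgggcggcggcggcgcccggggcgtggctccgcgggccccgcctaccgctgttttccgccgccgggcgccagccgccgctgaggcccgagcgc
Chordc1: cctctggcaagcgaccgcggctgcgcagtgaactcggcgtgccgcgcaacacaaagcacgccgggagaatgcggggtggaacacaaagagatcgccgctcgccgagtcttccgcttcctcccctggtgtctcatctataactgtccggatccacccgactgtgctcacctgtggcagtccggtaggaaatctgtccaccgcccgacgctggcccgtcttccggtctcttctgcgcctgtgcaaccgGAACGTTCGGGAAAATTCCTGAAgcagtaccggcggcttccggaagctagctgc
The ER stress element was found in a window of 7 of the 21 listed endoplasmic reticulum genes with a promoter in the table, 2 of which rose in waking, against 20 of 14452 genes tested (0.138%). Of the 4 genes of this list that rose and had a promoter there, Xbp1 and Sdf2l1 lacked the element. The heat shock element was found in 4 of 17 cytosolic chaperones, including Hsph1 and Chordc1, against 0.609% of the genes tested. The glucocorticoid response element was present in 1 of 21 glucocorticoid-responsive genes, Sgk1, and in 0.0277% of the genes tested. A match shows that these letters lie in the window and is no evidence that a factor is bound there.

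**Figure D3:**
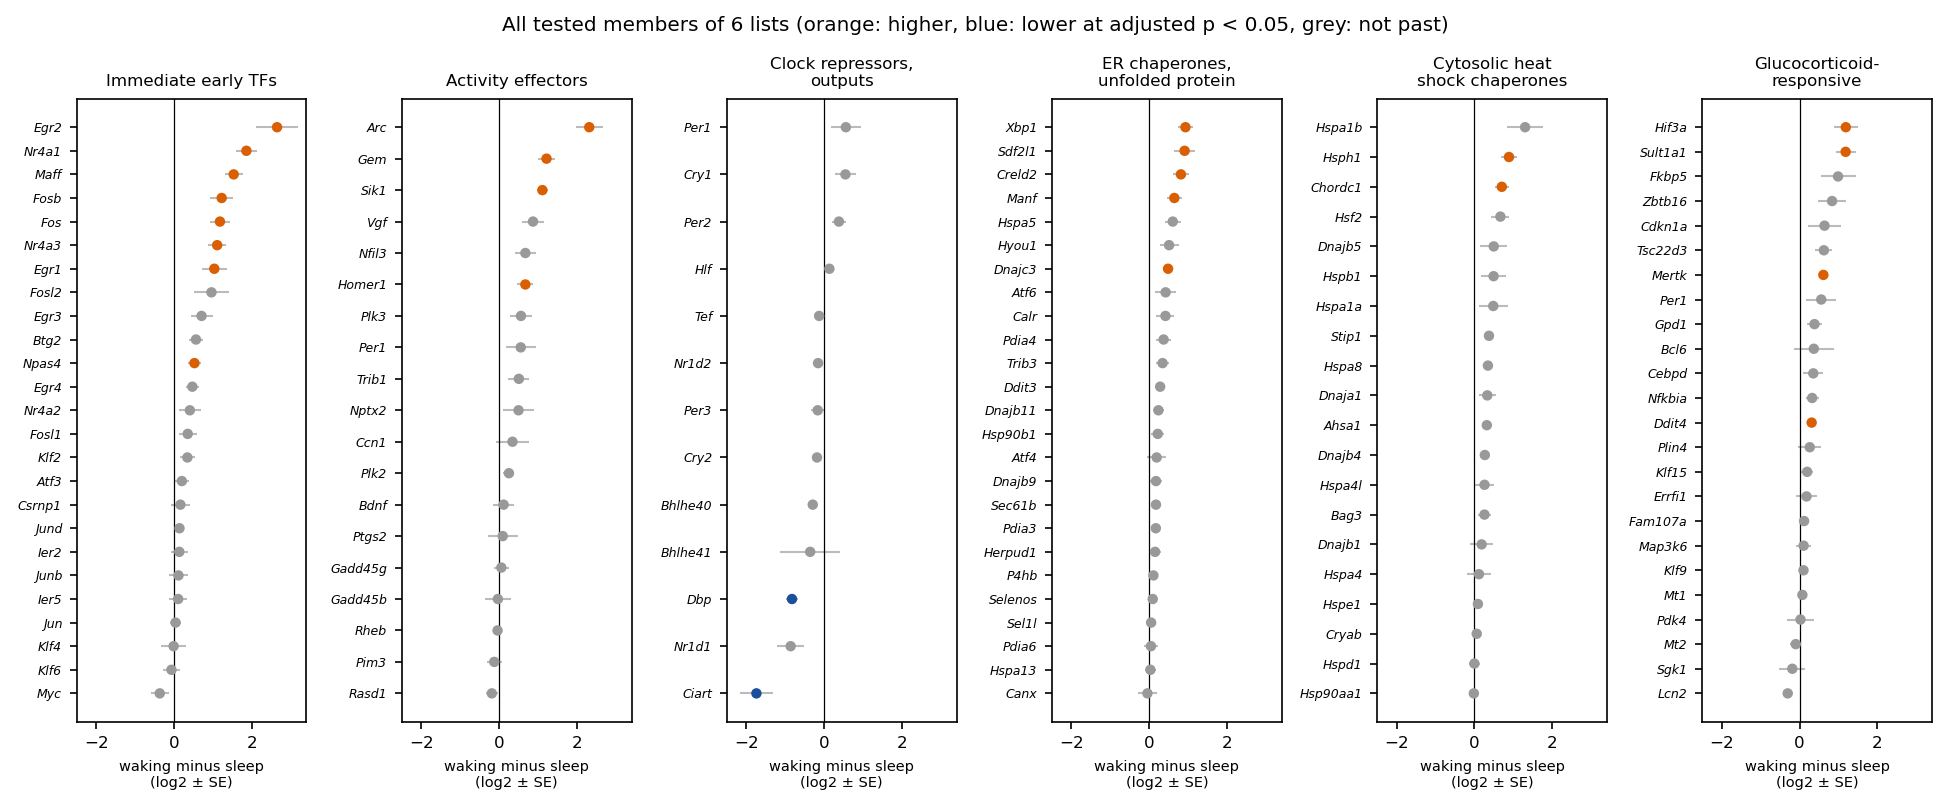
Differences, waking minus sleep (log2, horizontal axes, bars are SE), of every tested member of 6 lists, ordered within each list. Orange members were higher and blue members lower in waking at an adjusted p under 0.05 and grey members did not pass, and most members of the immediate early, effector, endoplasmic reticulum, heat shock and glucocorticoid lists lie above 0. This is not particular to them. The median difference of all genes was 0.09, and 42 of 43 ribosomal proteins, not drawn here, lay above 0 too.

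Genes that glucocorticoids induce rose in 4 of 24 members (16.7%, beside 9.07% of all genes) and fell in none (median 0.32). With quantile normalization repeated 3 rose and 1 fell, and with the replicate block 6 rose. Corticosterone in mice peaks around the start of the dark phase and rises in sleep deprivation, which is background here, as hormone was not measured. Sult1a1, a phenol sulfotransferase, lay between 9.32 and 10.42 (median 9.68) in waking and between 7.95 and 9.16 (median 8.54) in sleep, without overlap (difference 1.18 ± 0.26, adjusted p = 0.00498). Hif3a, a HIF subunit that lacks the activation domain of its relatives, lay between 7.61 and 9.16 (median 8.45) in waking and between 6.47 and 8.21 (median 7.10) in sleep (difference 1.19 ± 0.30, adjusted p = 0.0160). The groups overlapped, and it did not pass with bright genes tested alone (adjusted p = 0.0668). It was higher still after sleep deprivation, at 9.18 to 10.61, and the difference of waking from that group was -1.50 (adjusted p = 0.00509). Mertk, a receptor by which astrocytes take up synaptic debris, rose by 0.61 ± 0.12 (adjusted p = 0.00271), and Ddit4, an inhibitor of mTORC1, by 0.31 ± 0.09 (adjusted p = 0.0393, up to 0.0906 when any of 11 arrays was left out). Fkbp5, the best known target of the receptor, lay between 7.05 and 8.45 in waking, 7.78 and 10.96 after sleep deprivation and 6.21 and 6.74 in sleep. Its waking and sleep arrays did not overlap, but it did not pass in the fit, which takes 1 variance for the 3 groups (0.99 ± 0.45, adjusted p = 0.193), while waking was lower than sleep deprivation by a difference of -1.99 (adjusted p = 0.0101). Tsc22d3, the anti-inflammatory protein GILZ, had 0.62 ± 0.22 (adjusted p = 0.0765, under 0.05 without sleep replicate 2, and 0.00998 with the block). Sult1a1, Hif3a and Mertk were higher in the bound than in the unbound fraction, by 3.63, 2.76 and 2.73.

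Metabolic genes were examined in lists that are almost all bright, so their counts stand beside the 3.21% of bright genes that were higher and the 0.896% that were lower as well as beside the shares of all genes. Of 24 genes of glycogen metabolism, 2 rose and 1 fell (median 0.03). With the replicate block 4 and 1 did, and with quantile normalization repeated 1 and 1 did. Ppp1r3c, which targets protein phosphatase 1 to glycogen and promotes its synthesis, lay between 11.46 and 11.66 (median 11.55) in waking and between 11.02 and 11.18 (median 11.11) in sleep. The arrays of each group were tightly spaced and apart (difference 0.46 ± 0.08, adjusted p = 0.000757). Ppp1r3d, of the same family, rose by 0.55 ± 0.16 (adjusted p = 0.0273, lost without any of 6 arrays, up to 0.0671), and Epm2a, the glycogen phosphatase laforin, fell by 0.52 on the log2 scale (adjusted p = 0.0331, lost without any of 5 arrays, up to 0.0744). Of 19 genes of glycolysis, Pfkfb3, which makes the activator fructose 2,6-bisphosphate, rose by 0.70 ± 0.19 (adjusted p = 0.0214, and 0.0503 without sleep replicate 2). Among 11 glucose and lactate transporters only the dim Slc16a3 passed, lower in waking by a difference of -0.61 (adjusted p = 0.0246, lost without sleep replicate 1, waking replicate 4 or waking replicate 5, up to 0.0595), and the glucose transporter Slc2a1 had 0.33 ± 0.14 (adjusted p = 0.156, and 0.0203 with the block). Cholesterol synthesis had 1 of 20 genes past the threshold, Idi1, an isomerase of isoprenoid precursors, which fell by 0.41 on the log2 scale (adjusted p = 0.0223, lost without sleep replicate 1, waking replicate 2 or waking replicate 3, up to 0.0546), with a list median of -0.15. Lpl, lipoprotein lipase, was dim, with 4.57 to 5.13 in waking and 5.50 to 6.62 in sleep (difference -1.28 ± 0.22, adjusted p = 0.000843), and was the only one of 11 genes of cholesterol export and lipoproteins to pass. None of 25 genes of fatty acid oxidation, 18 of fatty acid synthesis and binding and 28 of amino acid metabolism and transport passed in limma, while 1, 3 and 3 of them had an unadjusted p under 0.05 and 1, 0 and 2 passed with the replicate block.

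Of 25 astrocyte markers 4 rose (Gjb6, Slco1c1, Ppp1r3c and Fgfr3), none fell and 21 did not pass, with a median difference of 0.09. All 25 are bright, and 3.21% of bright genes and 9.07% of all genes were higher. Gjb6, the gap junction protein connexin 30, lay between 11.29 and 11.60 (median 11.39) in waking and between 10.65 and 11.06 (median 10.84) in sleep, without overlap (difference 0.59 ± 0.10, 1.51-fold, adjusted p = 0.00061). Slco1c1, a carrier of thyroxine, lay between 11.65 and 12.30 (median 11.81) in waking and between 10.63 and 11.43 (median 11.19) in sleep, also without overlap (difference 0.75 ± 0.14, adjusted p = 0.00153). Mfsd2a, a transporter of lysophosphatidylcholine known best from brain endothelium, lay between 10.02 and 10.62 (median 10.43) in waking and between 8.48 and 9.75 (median 9.09) in sleep (difference 1.29 ± 0.26, 2.45-fold, adjusted p = 0.0033). In these arrays it was higher in the bound than in the unbound fraction by 3.37. Dbx2, a homeobox factor, lay between 7.73 and 8.52 (median 8.34) in waking and between 7.07 and 7.52 (median 7.26) in sleep (difference 0.95 ± 0.21, adjusted p = 0.00559). Fgfr3, an FGF receptor of astrocytes, rose by 0.35 ± 0.09 (adjusted p = 0.0134), but not when bright genes were tested alone or quantile normalization was repeated. Npas3, a transcription factor, fell by 0.39 on the log2 scale (adjusted p = 0.0186). Thrb, a thyroid hormone receptor (0.35, adjusted p = 0.0449), and Notch1 (0.51, adjusted p = 0.0413) were higher and Notch3 (-0.68, adjusted p = 0.0338) was lower, and these 3 calls ended when any of 9, 8 and 7 arrays was left out (adjusted p up to 0.105, 0.0978 and 0.0813). Adm, the vasodilator peptide adrenomedullin, lay between 10.73 and 12.41 (median 11.47) in waking and between 8.72 and 10.94 (median 9.95) in sleep, and 1 sleep array reached into the waking range (difference 1.54 ± 0.37, adjusted p = 0.0101). Besides Adm, 2 of the other 23 receptors and signalling genes for monoamines, peptides and cAMP rose, Crem (0.57 ± 0.15, adjusted p = 0.0171) and the dim Vipr1 (0.44 ± 0.10, adjusted p = 0.00766). Crem did not pass with bright genes tested alone (adjusted p = 0.0751). With quantile normalization repeated Adm alone of the 24 rose, and with the replicate block 6 did. No gene passed in limma among 19 of potassium, water and pH homeostasis, 15 of adenosine and ATP signalling or 12 of prostaglandin synthesis and reception, where 2, 1 and 0 had an unadjusted p under 0.05 and 2, 1 and 1 passed with the block. Gja5, a connexin of vessels, and Slc38a5, a glutamine carrier, were dim and rose by 0.43 and 0.50 (adjusted p = 0.00498 and 0.0185), but did not pass with quantile normalization repeated. The water channel Aqp4 had -0.15 ± 0.10 (adjusted p = 0.423), the glutamate transporter Slc1a3 0.09 ± 0.08 (0.609) and glutamine synthetase, Glul, 0.13 ± 0.08 (0.367).

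The remaining lists had between 1 and 4 members past the threshold. Both cytoplasmic actins fell, by little. Actg1 lay between 12.31 and 12.64 (median 12.47) in waking and between 12.81 and 12.90 (median 12.87) in sleep (difference -0.38 ± 0.08, adjusted p = 0.00269). Actb had -0.22 ± 0.07 (adjusted p = 0.0460), a call that ended when any of the 12 arrays was left out (adjusted p up to 0.0896), although its groups did not overlap. Synpo, an actin-binding protein of spines, rose by 0.70 ± 0.19 (adjusted p = 0.0218, up to 0.0534 without sleep replicate 6 or waking replicate 5). Timp4, an inhibitor of metalloproteinases, rose by 0.29 ± 0.07 (adjusted p = 0.0106), Vcan, the matrix proteoglycan versican, by 0.89 ± 0.25 (adjusted p = 0.0275, up to 0.0683 without any of 8 arrays), and Slc39a14, a zinc and iron importer, by 0.77 ± 0.18 (adjusted p = 0.00833), although the 4 probe sets of Slc39a14 ranged from -0.57 to 0.96. The calls of Timp4 and Vcan ended with probe sets averaged. Of 43 cytosolic ribosomal proteins only Rps2 passed (0.36 ± 0.07, adjusted p = 0.00398), of 38 translation factors only Eif4e2 (0.46 ± 0.11, adjusted p = 0.0130) and of 33 proteasome and ubiquitin genes only Psmc5 (0.48 ± 0.10, adjusted p = 0.00477). Among 47 nuclear-encoded respiratory chain subunits only the dim Cox7c passed, and among 50 genes of the secretory pathway only the dim Tmed2. Of 23 intermediate filament and reactive genes only the dim Tgm1, a transglutaminase, passed (0.64 ± 0.11, adjusted p = 0.000759). Of 29 genes of NF-kappa-B and cytokine signalling 2 did, the dim chemokine Ccl2 (0.57 ± 0.14, adjusted p = 0.0128, lost with quantile normalization repeated) and the cytokine Il18 (0.39 ± 0.12, adjusted p = 0.0373, lost without any of 10 arrays, up to 0.0834). Genes of hypoxia and growth arrest had 4 of 26 higher, Adm, Hif3a, Ddit4 and Mdm2, the last with 0.48 ± 0.14 (adjusted p = 0.0378, lost without any of 7 arrays, up to 0.0908). Their share, 15.4%, stands beside the 9.07% of all genes that were higher. With quantile normalization repeated 2 of these 26 rose, and with the replicate block 7 did. That block also moved other lists by over 1.5 times, to 1 higher and 3 lower clock repressors and outputs, 2 and 2 glucose and lactate transporters, 2 lower genes of cholesterol synthesis, 1 and 1 of glycolysis, 2 higher of glutamate and GABA uptake, 4 and 1 of FGF, Notch, Wnt, BMP and TGF-beta signalling, 3 and 2 reactive genes and 1 and 1 of phagocytosis. Ribosomal proteins then had 4 higher, translation factors 3, the proteasome list 2, the secretory list 3 higher and 1 lower, and the respiratory chain 2 lower. Neuronal markers then had 1 higher and 1 lower and oligodendrocyte precursor markers 1 higher.

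**Figure D4:**
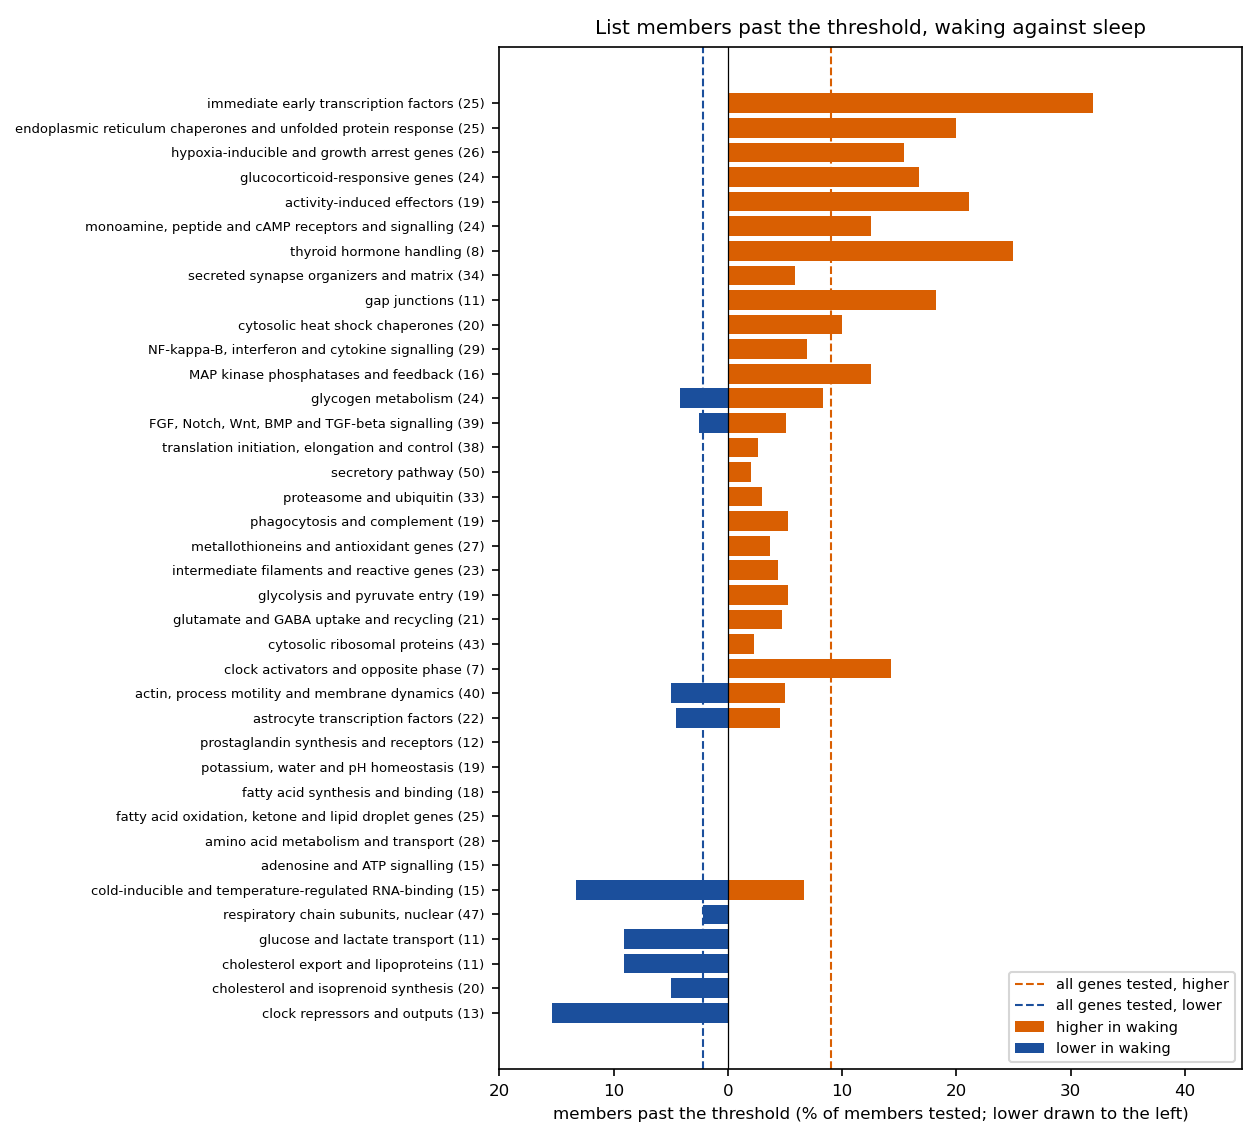
Share of the tested members of 38 gene lists (number tested in brackets) that were higher (orange, to the right) or lower (blue, to the left) in waking than in sleep at an adjusted p under 0.05, in percent. Dashed lines mark the shares among all genes tested, 9.07% higher and 2.14% lower, and immediate early transcription factors, with 32% higher, extend farthest to the right.

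The counts of markers of other cell types stand beside the 9.07% of all genes that were higher and the 2.14% that were lower. These shares were 3.21% and 0.896% in bright genes and 19.4% and 4.33% in dim genes. Bright were 3 of 14 endothelial, 13 of 15 microglial and 12 of 13 oligodendrocyte markers. Of 14 endothelial markers 4 were higher in waking, Mfsd2a, Esam, Cldn5 and Tie1, and the mean level of the list was 5.84 to 6.20 over waking arrays and 5.41 to 5.68 over sleep arrays. Esam (1.12), Cldn5 (0.76) and Tie1 (0.76) were dim. Microglial markers were higher in 3 of 15, Tmem119 by 1.07 ± 0.25 (adjusted p = 0.0088), Itgam and Fcrls (lost without any of 8 arrays, adjusted p up to 0.0994, and with quantile normalization repeated), with list means of 6.41 to 6.58 in waking and 6.04 to 6.40 in sleep, whereas Csf1r, C1qa and P2ry12 did not pass. Oligodendrocyte markers had 2 of 13 higher, Ermn (1.15 ± 0.26, adjusted p = 0.00646) and the dim Ugt8a (1.23 ± 0.25, adjusted p = 0.00342), with list means of 7.77 to 8.27 in waking and 7.49 to 8.06 in sleep. The median difference of this list was 0.0016, with 7 of 13 members above 0, and with quantile normalization repeated 2 were higher and 1 was lower. Of 23 neuronal markers only Vip, a peptide of a class of interneurons, passed (0.88 ± 0.15, adjusted p = 0.000769), with list means of 9.40 to 9.94 in waking and 9.31 to 9.76 in sleep. Of 3 red blood cell genes, Hba-a1 and Slc4a1 were higher and dim, and both calls ended with quantile normalization repeated. Pericyte and smooth muscle markers had 2 higher (Myh11, Abcc9) and 1 lower (Kcnj8) of 12, all dim. None of 11 meningeal, 12 choroid plexus and ependymal or 9 oligodendrocyte precursor markers passed in limma, with 0, 1 and 0 at an unadjusted p under 0.05, although the meningeal list had a median of -0.32 and the choroid plexus list a median of -0.65. The mean level of the choroid plexus list ran from 5.82 to 8.70 over waking arrays and from 6.26 to 9.02 over sleep arrays. The part of these cells in the differences of other genes was not tested.

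By the pull-down itself, the bright genes fell into 5636 that were higher in the bound than in the unbound arrays, 3254 that were lower and 2714 that were neither. In these classes 185, 98 and 89 genes rose in waking and 69, 15 and 20 fell. With the replicate block 437, 242 and 203 rose and 175, 64 and 52 fell, and with quantile normalization repeated 88, 45 and 37 rose and 98, 28 and 32 fell. Among the 3210 bright genes at least 2-fold higher in the bound fraction, 84 rose and 48 fell, so 63.6% of calls were higher, against 78.2% over all bright genes. With quantile normalization repeated 45 rose and 59 fell in this class, against 170 and 158 over all bright genes. The rising genes of this class included Gem, Sult1a1, Slco1c1, Gjb6, Ppp1r3c, Dbx2, Mertk and Mfsd2a. The falling ones included Dbp, Idi1, Npas3, Gstt3, Hfe and Icosl. The change was tested for a difference between the fractions, in which 5.60% of all genes passed, and the median of the unbound differences, 0.30, is to be read beside each. Gstt3, a glutathione transferase, lay between 6.53 and 7.91 in bound waking and between 7.87 and 8.41 in bound sleep (difference -0.89 ± 0.19, adjusted p = 0.00557), while the unbound pools had 1.62, and the difference between fractions was -2.51 (adjusted p = 0.000428). Ppp1r3c rose in both, more in the unbound (1.36) than in the bound (0.46) fraction, with a difference of -0.90 (adjusted p = 0.00145).

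Of the other genes with the largest differences, Zfp493, a zinc finger protein, lay between 6.62 and 8.09 (median 7.35) in waking and between 5.27 and 6.47 (median 5.68) in sleep (difference 1.62 ± 0.33, adjusted p = 0.00347). It was higher in waking than after sleep deprivation too, by 1.55 (adjusted p = 0.00724). Ddx31, an RNA helicase of ribosome assembly, had 2.00 ± 0.58 (adjusted p = 0.0321), which ended with any of 6 arrays left out (adjusted p up to 0.0664), with bright genes tested alone and with quantile normalization repeated, and its sleep arrays ran from 3.42 to 7.08. Bambi, a decoy receptor of BMP and TGF-beta signals, rose by 1.28 ± 0.28 (adjusted p = 0.0051), Zfp866, another zinc finger protein, by 1.21 ± 0.28 (adjusted p = 0.0086) and Rbm12b1, an RNA-binding protein, by 1.18 ± 0.28 (adjusted p = 0.0101). Among the genes that fell, Accs lay between 6.31 and 7.23 (median 6.68) in waking and between 7.07 and 8.64 (median 7.89) in sleep (difference -1.14 ± 0.22, adjusted p = 0.00247). Slc25a36, a mitochondrial carrier of pyrimidine nucleotides, fell by 1.07 on the log2 scale (adjusted p = 0.0054), but its 3 probe sets ranged from -1.07 to 0.85. Icosl, a ligand of T cell costimulation (-0.98), Reep6, which shapes membranes of the reticulum (-0.97), Psmb9, a subunit of the immunoproteasome (-0.89), Trpc7, a cation channel (-0.88), Mir99ahg, a host transcript of microRNAs (-0.87), and Ahnak, a giant scaffold protein (-0.87, up to adjusted p = 0.0649 without any of 4 arrays), fell as well. The other probe set of Mir99ahg had 0.31, and the 4 probe sets of Ahnak ranged from -0.87 to 0.20. The calls of both ended with probe sets averaged. Hfe, a regulator of iron uptake, had -0.91 ± 0.26 (adjusted p = 0.0299, lost without any of 6 arrays, up to 0.0704), and Alkbh3, a demethylase that repairs alkylated bases, had -0.90 ± 0.17 (adjusted p = 0.00148), with its other probe set at 0.36.

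Sphk2, a sphingosine kinase, lay between 11.03 and 11.80 (median 11.34) in waking and between 12.18 and 12.41 (median 12.26) in sleep, without overlap (difference -0.92 ± 0.15, adjusted p = 0.000436). The gene has 2 probe sets here, and the other, dimmer probe set had 0.93. In the RefSeq table Sphk2 and Dbp overlap each other on the chromosome, and their levels in the groups were alike in order. Whether the bright probe set of Sphk2 reads transcripts of Dbp was not tested, and the fall is therefore given for that probe set and not for the gene.

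The genes with the smallest p were mostly dim. The 10 with the smallest p among the higher genes were all dim, with mean levels of 3.72 to 5.15 in waking and 2.60 to 4.03 in sleep. Tmbim7, of a family of membrane proteins, lay between 4.45 and 4.91 in waking and between 2.84 and 3.24 in sleep (difference 1.58 ± 0.11, adjusted p = 4.14e-07), and Ankrd1, a muscle ankyrin repeat protein, and Lep, the hormone leptin, had 1.36 ± 0.11 and 1.03 ± 0.10. Of the 10 with the smallest p among the lower genes, 2 were bright, Cirbp and Ppfia3. Ppfia3, a liprin of the presynaptic active zone, lay between 5.54 and 6.01 in waking and between 6.89 and 7.15 in sleep (difference -1.19 ± 0.11, adjusted p = 4.08e-06), and waking was below sleep deprivation as well (difference -1.12, adjusted p = 9.97e-06). The dim chemokine Cxcl5 had -2.05 ± 0.24 (adjusted p = 3.78e-05). These dim genes lie in the part of the scale where the sleep arrays had the lower quartile given above.

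Within animals 1 to 3 alone 749 genes were higher and 188 lower in waking, and within animals 4 to 6 alone 514 and 124, with 3 arrays per state in each. The difference between waking and sleep was tested between the sets, and 0 of 18193 genes passed in limma, while 926 (5.09%) had an unadjusted p under 0.05. Arc had 2.04 in animals 1 to 3 and 2.59 in animals 4 to 6, and Cirbp had -2.04 in animals 1 to 3 and -1.43 in animals 4 to 6. Nr4a1 had 1.28 in animals 1 to 3, where it did not pass (adjusted p = 0.0949), and 2.44 in animals 4 to 6. Sdf2l1 had 1.40 in animals 1 to 3 and 0.41 in animals 4 to 6.

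**Figure D5:**
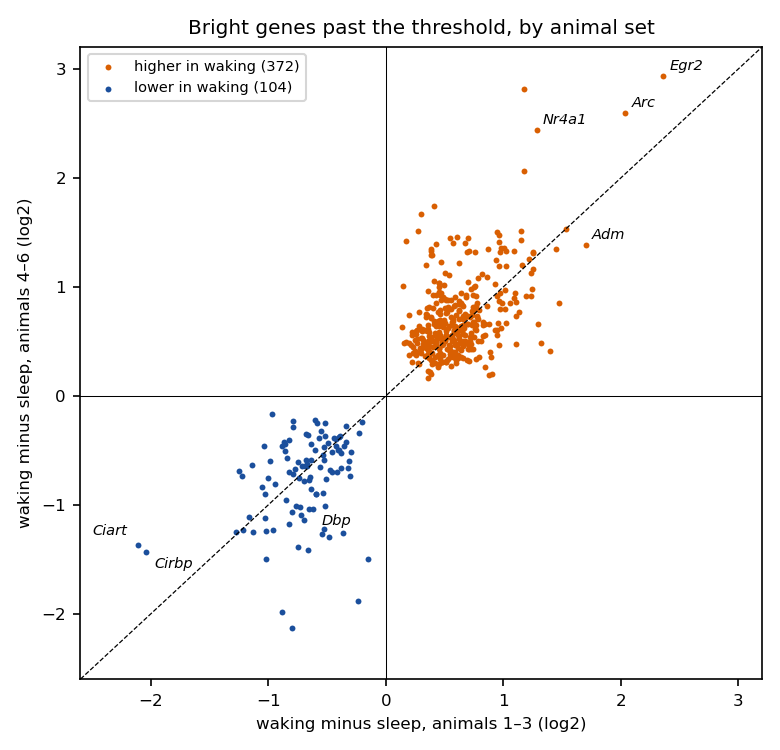
Differences, waking minus sleep (log2), of the 476 bright genes past the threshold, within animals 1 to 3 (horizontal axis) and within animals 4 to 6 (vertical axis), with orange for genes higher and blue for genes lower in waking. The dashed line marks equal differences, and Arc, Egr2 and Adm as well as Cirbp and Ciart lie far from 0 in both sets, which together chose the genes shown.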

How the data were processed

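The deposited values are log2 levels per probe set of Affymetrix Mouse Genome 430 2.0 arrays, which the authors made by RMA per the submitters' processing notes. The version of RMA, and which arrays were normalized together, are not given in the sources used here. Of 45101 probe sets, 64 controls were left out, 34945 had 1 gene symbol in the platform annotation, 932 had several and 9160 had none here. RefSeq matched 34741 of them by Entrez ID and updated the symbols. Where a gene had several probe sets, the brightest on average over the 24 arrays stood for it, which left 18193 genes. No reads or counts underlie these values, so the number of arrays, 6 per state, limits the precision. The labels call the samples biological replicates.

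The 18 bound arrays in 3 groups were fitted with limma 3.58.1 in R 4.3.3 without a block, and the contrast waking minus sleep was adjusted over all genes (Benjamini-Hochberg, threshold 0.05). Unbound values and the difference between fractions came from a fit of all 24 arrays in 6 groups. On simulated data for this comparison with 18193 genes, 32.8% of genes changed by 0.5, 74.6% of those changed by 1 and 95.5% of those changed by 2 on the log2 scale were recovered, and 3 of 138 calls were false. The simulated noise was independent between arrays, with no axis between animal sets and no offset between states. The share of false calls in the measured arrays therefore cannot be read from it. Genes were named as the 15 with the largest difference in each direction among those past the threshold, at or above the median level of all genes in the higher group, the 10 in each direction with the smallest p, members of 48 gene lists (10 of them cell type markers), Aldh1l1 and Rpl10a. Predicted transcripts, Y-linked genes and Xist were skipped. The members and lists were chosen with earlier results of these data known, and the genes with the smallest p, which are mostly dim, are described by a few of them.

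Waking and sleep arrays with the same replicate number deviated together (correlation of deviations from the group means 0.31 to 0.53 over 6 pairs), but no more than arrays of other numbers in the same animal set (0.30 to 0.53 over 12 pairs), while arrays of different sets had -0.50 to -0.29 (18 pairs), and 2 of 6 matched best with their own number. The number therefore stands for the animal set, and counts with it as a block are printed where they moved by over 1.5 times, with the adjusted p of genes described that passed only with it. Other alternatives were the animal set as a block or each set alone, other sets of arrays, dim genes left out, other treatments of probe sets, repeated normalization or centring, an intensity trend, array weights, a fold limit and each array left out. Promoter sequences, 250 bases before to 50 after each start, are RefSeq's on GRCm38.p6, and motifs were searched on both strands. Figures were drawn with matplotlib 3.10.9.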

Additional observations from a re-analysis of the deposited data

Results flagged for a closer look

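Within groups of 6 arrays, the highest or lowest array stood apart from the other 5 in 12 of 272 groups examined over 136 genes, and chance flags about 1 in 20 groups. Waking replicate 2 was the highest for Homer1 (11.8809) and the lowest for Il18 (10.8974). Waking replicate 3 was the highest for Dbp (12.4882), which is the waking array nearest to the sleep arrays. Waking replicate 4 was the highest for Npas3 (10.4636) and Timp4 (12.7156) and the lowest for Mir99ahg (5.543), and waking replicate 6 was the highest for Rab27b (8.3252). Of the sleep arrays, replicate 2 was the lowest for Pfkfb3 (7.8904) and Jtb (8.4322), replicate 3 the highest for Spry4 (9.2026), replicate 4 the highest for Epm2a (9.3068) and replicate 5 the lowest for Slc4a1 (4.5598).

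The difference between waking and sleep differed between the bound and the unbound fraction in 22 of the named genes, by the test of that difference at an adjusted p under 0.05 in limma, and 17 did so with quantile normalization repeated. A negative value means a lower difference in the bound fraction. For Ppp1r3c the bound minus unbound value was -0.9032, for Dusp1 -1.063 and for Timp4 -0.8781, and all 3 rose in the bound fraction. For Per3 it was -1.2284 and for Aqp4 -0.8506, and neither gene passed in the bound fraction. Lpl had -1.9194, Npas3 -0.87, Actg1 -0.507, Hfe -2.0884, Alkbh3 -1.2554, Gstt3 -2.5114, Ppfia3 -1.3789, Cxcl5 -2.3141, Acsm3 -2.0984, Capn12 -1.4665 and Ttc8 -1.6387, and these 11 fell in the bound fraction. Positive values were found for Jtb (0.8159) and for the dim genes Gja5 (1.0086), Tgm1 (1.0064), Tmbim7 (2.2191), Ankrd1 (2.4346) and Lep (1.0437), which rose in the bound fraction. The unbound fraction has 2 pools per state, and its median difference over all genes was 0.30.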

How the results depend on the processing

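The counts of 1650 higher and 389 lower genes moved by over 1.5 times with dim genes left out (113 and 29), with every probe set tested by itself (3221 and 866), within animals 1 to 3 (749 and 188) or 4 to 6 (514 and 124) and with a limit of 1.5-fold (869 and 198), the first 3 of which test other numbers of features or arrays. Quantile normalization repeated gave 742 and 636, and centring each array on its median 1055 higher. The cause of the shift in direction was not tested. The replicate block, in which the number stands for the animal set, gave 665 lower and, with quantile normalization repeated (chosen after seeing the data), 1096 lower. The animal set as a block gave 2633 and 752. Leaving out 1 array at a time gave 1371 to 1525 higher and 299 to 352 lower.

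Of the members of the 38 lists without markers, 66 calls became 131 with the replicate block, 133 with the set block, 39 within animals 1 to 3, 33 within animals 4 to 6, 28 with dim genes left out, 151 with every probe set and 40 with the fold limit, and 54 to 60 with 1 array left out. The 802 calls among genes higher in the bound fraction became, in the same order of settings, 1259, 1416, 374, 264, 75, 1468 and 392, and 663 to 721. Of 36 named genes past the threshold in the unbound pools, 0 passed in limma with the pool number as a replicate block and the unbound arrays alone (69 at an unadjusted p under 0.05), and 19 with quantile normalization repeated. On the unbound arrays alone without that block 29 named genes passed.

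Of 118 named genes past the threshold, 19 passed in all of up to 26 alternatives, 28 were lost with quantile normalization repeated, 36 with dim genes left out, 65 within animals 1 to 3 and 69 within animals 4 to 6, and 0 with the replicate block in limma. Averaging probe sets turned Sphk2 (0.0065) and Per3 (0.0915). It ended the calls of Abcc9, Actb, Ahnak, Alkbh3, Arglu1, Eif4e2, Fgfr3, Hfe, Hif3a, Idi1, Lpl, Mdm2 and Mir99ahg. The calls of Myh11, Notch1, Notch3, Npas2, Npas3, Pfkfb3, Pmepa1, Sema4d, Slc25a36, Slc4a1, Synpo, Timp4 and Vcan ended with it too. Aldh1l1, which did not pass, turned within animals 4 to 6 (0.0308) and with probe sets averaged (0.1398), and ran from -0.0954 to 0.0496 with 1 array left out. Of the 71 named genes with over 1 probe set, 23 had probe sets of opposite sign. Dim genes, and differences near 0.5, are where signal and the number of arrays limit these results.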

Other observations

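The genes given here are bright genes with the smallest p that the sections above do not describe, chosen after their values were seen, and no list of them was tested. Slit1, a ligand of Robo receptors, lay between 6.42 and 6.67 (median 6.56) in waking and between 5.55 and 6.11 (median 5.93) in sleep (difference 0.68 ± 0.10, adjusted p = 0.00018). Sema4d, a semaphorin, lay between 8.88 and 9.41 (median 9.19) in waking and between 8.14 and 8.59 (median 8.39) in sleep (difference 0.80 ± 0.12, adjusted p = 0.000364). Efnb1, an ephrin, lay between 7.00 and 7.89 (median 7.54) in waking and between 6.16 and 6.89 (median 6.63) in sleep (difference 0.93 ± 0.15, adjusted p = 0.00037), and was higher in waking than after sleep deprivation as well, by 0.70 (adjusted p = 0.0057). The waking and sleep arrays of these 3 genes did not overlap. One of the probe sets of Sema4d had -0.12, and its call ended with probe sets averaged.

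Ptchd1, a membrane protein of the patched family, had the smallest p of the bright genes that rose (1.40 ± 0.18, adjusted p = 7.05e-05), with 6.67 to 7.09 in waking, 4.91 to 6.39 after sleep deprivation and 5.30 to 5.73 in sleep, and was lower in the bound than in the unbound fraction by a difference of -1.82. All of its sleep arrays lay below the limit of 5.80 for bright genes, which it reached in the mean over the 18 bound arrays. Rab27b, a GTPase of vesicle release (0.95 ± 0.14), Pmepa1, an inhibitor of TGF-beta signalling (0.76 ± 0.12), Mettl7a2 (0.74 ± 0.10), Arglu1, a regulator of splicing (0.71 ± 0.11), Jtb (0.79 ± 0.12) and Ube2f, a neddylation enzyme (0.50 ± 0.08), rose too. The calls of Pmepa1 and Arglu1 ended with probe sets averaged. Acsm3, a mitochondrial acyl-CoA synthetase, lay between 5.22 and 5.83 in waking and between 6.23 and 6.84 in sleep (difference -0.97 ± 0.13, adjusted p = 9.86e-05). Ttc8, a subunit of the BBSome of cilia, lay between 7.04 and 7.95 in waking and between 8.19 and 8.61 in sleep (difference -0.71 ± 0.13, adjusted p = 0.00164), and was lower in waking than after sleep deprivation by a difference of -0.72 (adjusted p = 0.00255). Plekhd1 (-1.13 ± 0.19), Capn12, a calpain (-0.89 ± 0.16), and Rasl11b, a small GTPase (-0.68 ± 0.13), fell as well.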
